A study of Homo sapiens with 12 samples.

Results

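The response to SMARCA4 knockout (KO) was compared between the MDA-MB-468 line and the MDA-MB-231 line, and the genes whose response differed between the 2 lines are described by pathway and gene family. For each gene the change in MDA-MB-231 cells (KO minus control) was subtracted from the change in MDA-MB-468 cells, over all 12 samples of the series. A gene was called line-dependent when this difference had an adjusted p under 0.05 and exceeded 0.5 in either direction on the log2(FPKM + 1) scale. By this rule 1004 of 11529 genes were line-dependent, or 8.71% of those tested. The change was higher in MDA-MB-468 cells for 495 of them (4.29%) and lower for 509 (4.41%). With all samples scaled to the same 75th percentile the count was again 1004, but 394 had a higher change in MDA-MB-468 cells, so the split between the directions depended on the scaling. The sample labels also carry a p number whose meaning they do not state. With this number as a block 616 genes were line-dependent, 321 with a higher and 295 with a lower change in MDA-MB-468 cells. In MDA-MB-468 cells a KO sample and a control had p numbers without a match, and these were placed together in a shared block. In MDA-MB-231 cells the p number gave the same pairs as the replicate number.

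MDA-MB-468 and MDA-MB-231 are established human breast cancer cell lines of the triple-negative type. Each line contributed 3 control and 3 KO samples of bulk RNA. The KO cells had received a lentiCRISPR-v2 vector with Cas9 and a guide RNA against SMARCA4 and had been selected with puromycin, and they are pools of edited cells rather than 1 clone. The controls carry the wild-type label, and the study describes a nontargeting vector for its control cells. The labels do not say that the 3 samples of a group came from separate cultures, so the p-values measure the spread between these samples, which may be technical. In bulk samples a lower level in every cell and a smaller number of cells that express a gene cannot be told apart.

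SMARCA4 encodes BRG1, an ATPase of the SWI/SNF complexes, which slide and evict nucleosomes and so open promoters and enhancers to transcription factors. The complexes are brought to chromatin by the transcription factors a cell already has, and loss of the ATPase is known to raise some genes and lower others depending on the cell type. MDA-MB-468 cells are of the basal type with strong epithelial gene expression, and MDA-MB-231 cells are of a mesenchymal type.

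The labels were checked against the data first. In MDA-MB-468 cells the log2 value of SMARCA4 was 6.61, 6.62 and 6.68 in the controls and 5.35, 5.48 and 5.61 in KO cells, and in MDA-MB-231 cells 6.10, 6.18 and 6.09 against 4.46, 4.64 and 4.56. The groups did not overlap in either line, and the changes of -1.16 and -1.57 differed by 0.41 ± 0.11 (SE, adjusted p = 0.027), which is under the limit of 0.5. SMARCA2, the alternative ATPase, was not called in either line. The summed FPKM of the 5 epithelial markers EPCAM, CDH1, KRT8, KRT18 and KRT19 told the lines apart. It was 4917 to 5263 in controls and 5729 to 6142 in KO cells of MDA-MB-468. In MDA-MB-231 it was 751 to 1148 in controls and 1145 to 1264 in KO cells. The sum of VIM and ZEB1 was 2.12 to 3.70 in controls and 3.67 to 4.21 in KO cells of MDA-MB-468. In MDA-MB-231 it was 1232 to 1407 in controls and 949 to 1053 in KO cells. A check for RNA of the other line used 94 genes high in MDA-MB-468 cells and near 0 in MDA-MB-231 cells. Their median level in an MDA-MB-231 sample was 0.027 to 0.056% of that in MDA-MB-468 cells, and for 55 genes of the opposite kind it was 0.058 to 0.124%. The table holds no read counts, and how deeply a value was sequenced is unknown, and a change on the log2(FPKM + 1) scale understates that of a gene with a low level.

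The line-dependent genes fell into classes by the call in each line alone, made from the same fit with the same limits. KO cells differed from controls in 537 genes (4.66%) in MDA-MB-468 cells, with 316 higher (2.74%) and 221 lower (1.92%), and in 567 genes (4.92%) in MDA-MB-231 cells, with 390 higher (3.38%) and 177 lower (1.54%). Among the line-dependent genes, 25 were called in both lines in opposite directions, 6 in both lines in the same direction, 288 in MDA-MB-468 cells only and 312 in MDA-MB-231 cells only. The remaining 373 were called in neither line on its own. When each line was fitted alone, 14 genes were called in opposite directions and 144 in MDA-MB-468 cells only, with 247 genes called in that line.

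**Figure D1:**
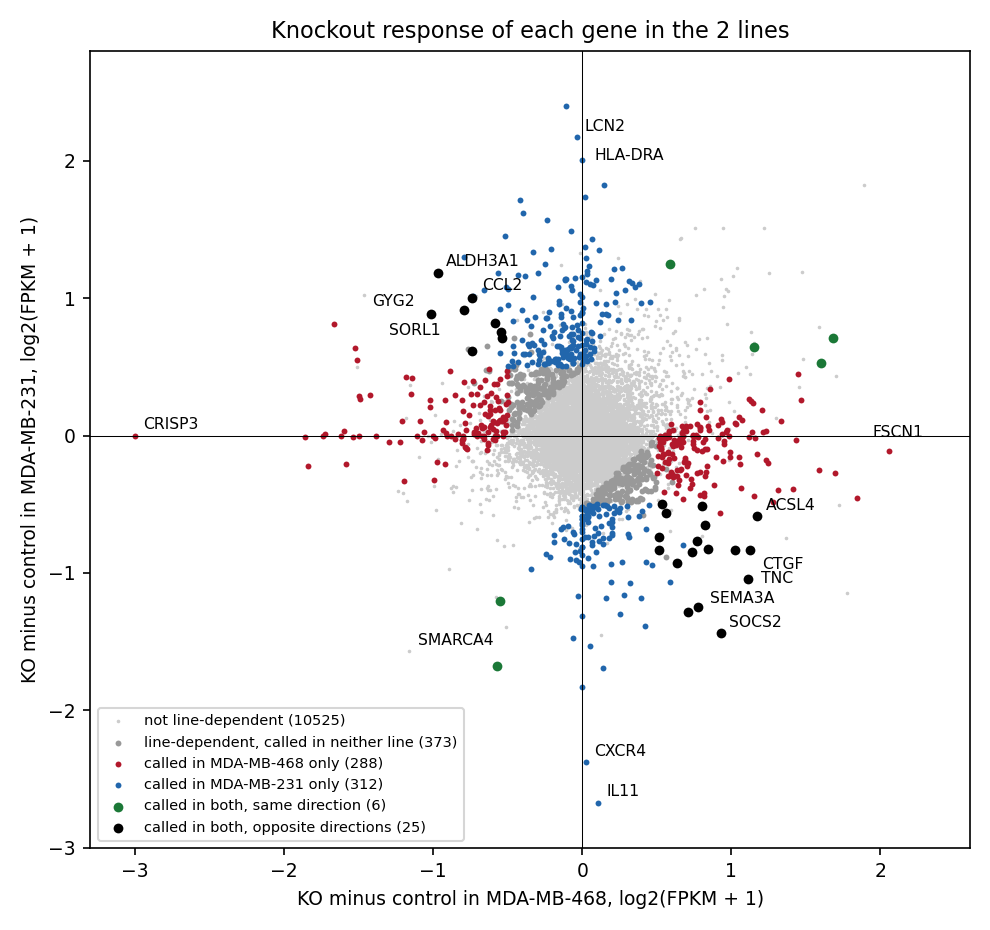
Change of each gene on KO in MDA-MB-468 cells (x axis) and MDA-MB-231 cells (y axis), in log2(FPKM + 1) units, with 1 point for each of 11529 genes and colours for the classes. The 25 genes called in opposite directions lie in the lower right and upper left, and most of the 600 genes called in 1 line lie close to an axis.

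Genes with opposite responses came first. Of the 25, 17 rose in MDA-MB-468 cells and fell in MDA-MB-231 cells, and 8 did the reverse. In the first group were regulators of signalling and transcription. SOCS2, a feedback inhibitor of cytokine and growth hormone receptors, had log2 values of 0.68, 0.74 and 0.51 in MDA-MB-468 controls and 1.62, 1.53 and 1.56 in KO cells, but of 2.64, 2.46 and 2.08 and 0.88, 1.04 and 0.94 in MDA-MB-231 cells. The KO and control samples did not overlap in either line, and KO cells of MDA-MB-468 lay above those of MDA-MB-231 while the controls lay below. Its difference of 2.37 ± 0.17 (SE, adjusted p = 2.66e-05) was the largest among the 25. MITF, a master transcription factor of melanocytes that also controls lysosomal genes, changed by 0.64 in MDA-MB-468 cells versus -0.93 in MDA-MB-231 cells. FOXC1, a forkhead factor of basal breast cells, changed by 0.80 and -0.51, and PPARG, a nuclear receptor of lipid metabolism, by 0.56 and -0.56.

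Other genes of this group encode matrix, adhesion and guidance proteins. TNC, the matrix glycoprotein tenascin-C, rose from 0.86, 0.85 and 1.05 to 1.93, 2.00 and 2.17 in MDA-MB-468 cells and fell from 5.38, 5.47 and 5.18 to 4.42, 4.20 and 4.27 in MDA-MB-231 cells, a difference of 2.16 ± 0.14 (SE, adjusted p = 1.12e-05). All samples of MDA-MB-231 remained above all samples of MDA-MB-468. CTGF, a secreted matricellular protein and a standard target of YAP and TAZ, had values of 3.20, 3.33 and 3.91 in controls and 4.71, 4.80 and 4.29 in KO cells of MDA-MB-468, and of 6.99, 6.18 and 6.49 and 6.09, 5.44 and 5.62 in MDA-MB-231. Its groups did not overlap in either line, but its spread was among the widest of the 25. SEMA3A, a repulsive axon guidance ligand, changed by 0.77 and -1.25, and its KO samples reached similar levels in both lines, 1.39, 1.19 and 1.66 in MDA-MB-468 versus 1.51, 1.43 and 1.27 in MDA-MB-231. ROBO1, the receptor for SLIT ligands, changed by 0.52 and -0.74, and ITGB2, the beta chain of leukocyte integrins, by 0.74 and -0.85. TMEM2, a cell surface hyaluronidase, changed by 0.77 and -0.77, and the adhesion protein AMIGO2 by 0.51 and -0.83.

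Lipid genes were on both sides of the 25. ACSL4, which activates polyunsaturated fatty acids for insertion into phospholipids, rose from 1.92, 1.84 and 2.27 to 3.24, 3.20 and 3.11 in MDA-MB-468 cells and fell from 5.05, 4.95 and 5.03 to 4.46, 4.31 and 4.51 in MDA-MB-231 cells. STARD4, a cholesterol transfer protein, changed by 0.84 and -0.83. In the reverse direction, CPT1A, the enzyme that admits long-chain fatty acids to mitochondria for oxidation, changed by -0.54 in MDA-MB-468 cells versus 0.75 in MDA-MB-231 cells, and PLB1, a phospholipase, by -0.54 and 0.71. The reverse group also held ALDH3A1, an aldehyde dehydrogenase, with values of 3.13, 2.55 and 2.68 in controls and 1.91, 1.84 and 1.69 in KO cells of MDA-MB-468 against 0.59, 1.12 and 0.87 and 1.96, 2.38 and 1.81 in MDA-MB-231. CCL2, a chemokine for monocytes, fell from 1.21, 1.39 and 0.93 to 0.82, 0.25 and 0.24 in MDA-MB-468 cells and rose from 2.73, 2.50 and 2.49 to 3.26, 3.73 and 3.73 in MDA-MB-231 cells. GYG2, a primer of glycogen synthesis, changed by -1.02 and 0.88, SORL1, a sorting receptor, by -0.79 and 0.91, and RAB3D, a GTPase of secretory granules, by -0.59 and 0.82. The transporter SLC22A23 changed by -0.74 and 0.62. The other 4 genes of the 25 were EVA1A, C12orf75 and TRNP1, with changes of 0.71, 1.03 and 0.82 in MDA-MB-468 cells against -1.28, -0.83 and -0.65 in MDA-MB-231 cells, and DNER, a ligand of Notch receptors. DNER lay close to the limit of 0.5 in both lines, at 0.53 and -0.50.

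**Figure D2:**
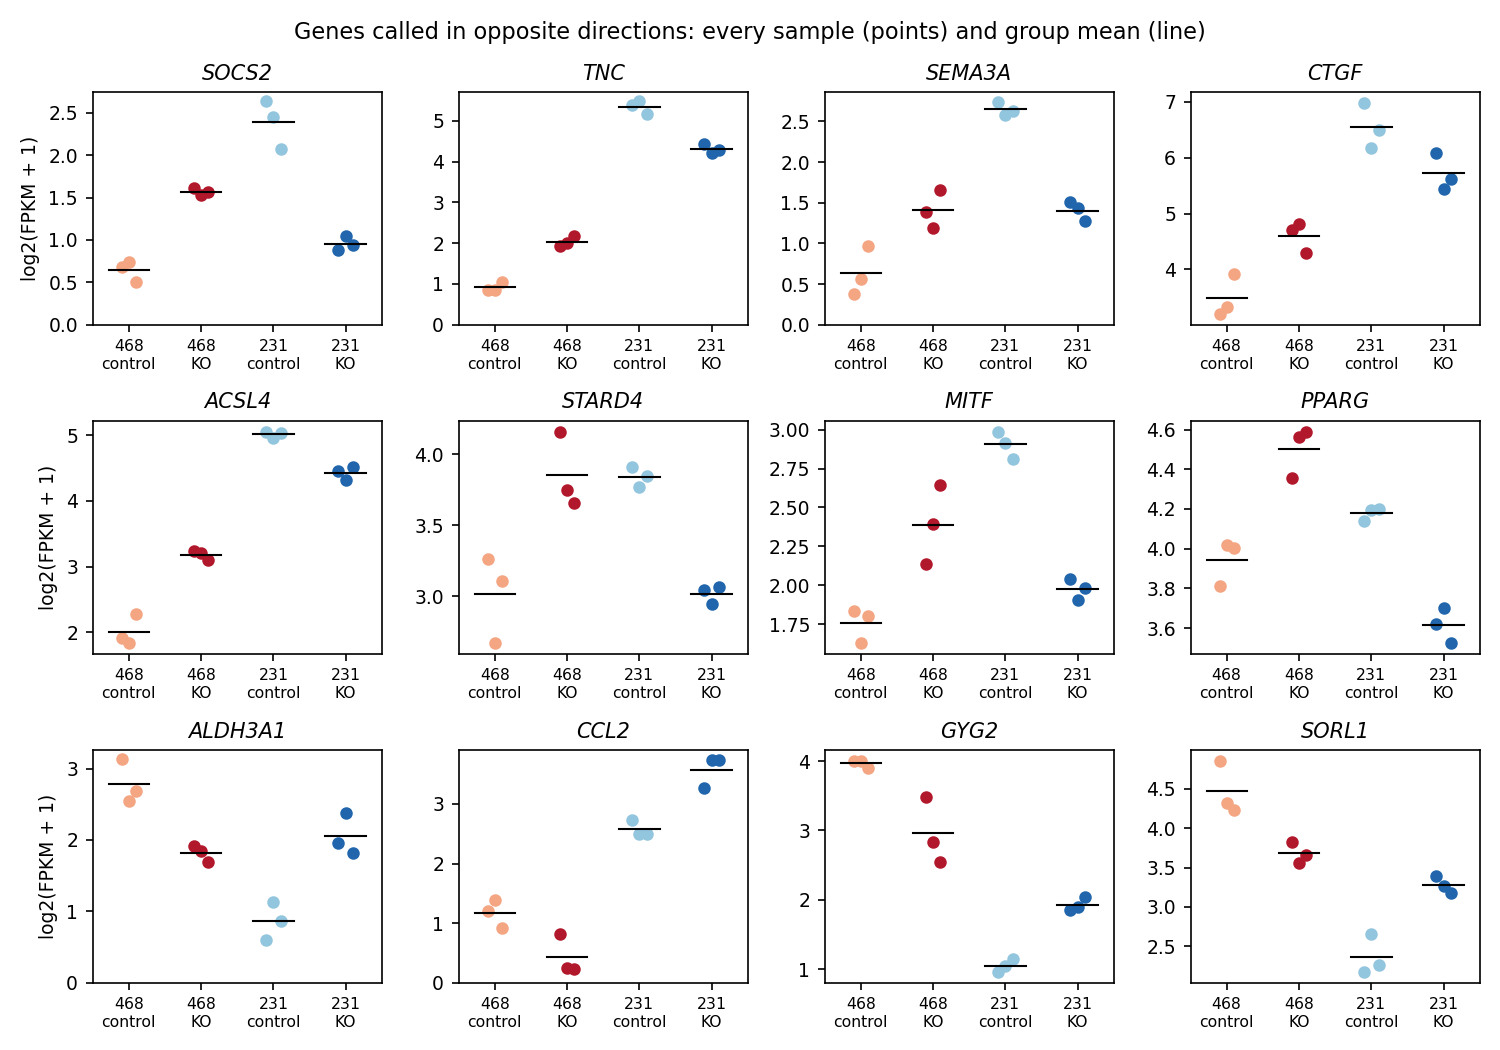
Log2(FPKM + 1) of 12 of the genes called in opposite directions in every sample, with 1 point per sample and a line at the mean of the 3 samples; y axes differ between panels and not all start at 0. For each of the 12 genes the 3 KO points lie on 1 side of the 3 control points in MDA-MB-468 cells and on the other side in MDA-MB-231 cells.

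The 25 were chosen by their calls, and in each of them the 3 KO samples lay apart from the 3 controls in both lines, which describes the choice. With each sample left out in turn, 14 of the 25 kept both calls in all 12 fits. In MDA-MB-468 cells CCL2 was no longer called without control replicate 1 or 2 or KO replicate 2 or 3 (adjusted p = 0.0717 to 0.0861), and PLB1 without control replicate 1 or 3 or KO replicate 2 or 3 (0.0632 to 0.0947). ROBO1 was not called there without control replicate 1 or 2 or any of the 3 KO replicates (0.0504 to 0.123), and AMIGO2 in 7 fits (0.0509 to 0.143), those without MDA-MB-468 control replicate 1 or 3, MDA-MB-468 KO replicate 2 or 3 or any KO sample of MDA-MB-231. The change of CPT1A without KO replicate 1 was -0.40 in MDA-MB-468 cells and that of PPARG without control replicate 1 was 0.49, both within 0.5 of 0.

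In MDA-MB-231 cells FOXC1 was not called without control replicate 1 or KO replicate 2 (adjusted p = 0.0744 and 0.0874), nor C12orf75 without control replicate 3 or KO replicate 2 (0.0514 and 0.062). The change of DNER there lay between -0.49 and -0.47 without control replicate 2 or 3 or KO replicate 2 or 3, and that of SLC22A23 was 0.49 without control replicate 1. CTGF lost its call in MDA-MB-468 cells without MDA-MB-468 control replicate 1 or KO replicate 2 (0.0592 and 0.0569), and in MDA-MB-231 cells without MDA-MB-231 control replicate 1 or 3, MDA-MB-231 KO replicate 2 or 3 or MDA-MB-468 control replicate 2 (0.052 to 0.143). With the replicate number as a block in MDA-MB-468 cells its adjusted p in MDA-MB-231 cells was 0.0597, and with the block in both lines PLB1 and ROBO1 had 0.0552 and 0.0638 in MDA-MB-468 cells. With the p number of the labels as the block, 21 of the 25 kept both calls. AMIGO2, CCL2 and PLB1 were then not called in MDA-MB-468 cells (0.0693, 0.0892 and 0.0636), nor C12orf75 in MDA-MB-231 cells (0.0631).

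Cholesterol and fatty acid synthesis genes are switched on together by the SREBP factors when sterols are low. Of 37 measured genes of this list, 12 were line-dependent (32.4%, against 8.71% of all genes), and all 12 had a higher change in MDA-MB-468 cells. Of these 12, 7 were called in neither line on its own. Another 2 rose in MDA-MB-468 cells only, 2 fell in MDA-MB-231 cells only, and STARD4 was called in both. In MDA-MB-468 cells 5 members rose and 0 fell, and in MDA-MB-231 cells 1 rose and 4 fell. The median change was 0.30 in MDA-MB-468 cells versus -0.23 in MDA-MB-231 cells, against 0.02 and -0.01 over all genes. With each line fitted alone, 0 members rose in MDA-MB-468 cells, and with the p number as a block 2 did. In 25 of the 37 (67.6%) the fitted change was above 0 in MDA-MB-468 and below 0 in MDA-MB-231 cells, and in 1 the reverse, while of all genes 28.4% were above and below in this way.

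By role, the line-dependent members ran through the mevalonate and sterol branches and into fatty acid desaturation. ACAT2, which starts the route by joining acetyl units, had changes of 0.30 in MDA-MB-468 cells versus -0.48 in MDA-MB-231 cells. MVK, mevalonate kinase, had values of 4.44, 4.17 and 4.14 in controls and 5.22, 4.61 and 4.55 in KO cells of MDA-MB-468 against 3.81, 3.69 and 3.62 in controls and 3.15, 3.33 and 3.40 in KO cells of MDA-MB-231. Neither line showed overlap between its groups, and the first replicate was the highest in both MDA-MB-468 groups. IDI1 and FDPS, which make the isoprenoid building blocks, had changes of 0.30 and 0.30 in MDA-MB-468 cells against -0.51 and -0.30 in MDA-MB-231 cells. FDFT1, SQLE and LSS, the enzymes that make and cyclise squalene, had changes of 0.30, 0.49 and 0.42 in MDA-MB-468 cells against -0.32, -0.37 and -0.19 in MDA-MB-231 cells. The fatty acid desaturases FADS1 and FADS2 had changes of 0.58 and 0.46 against -0.29 and -0.40.

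INSIG1, which holds SREBP back when sterols are high, was among the members called in neither line, at 0.56 and -0.88. Its difference (adjusted p = 0.0316) was not called without MDA-MB-231 control replicate 1 or 3, MDA-MB-231 KO replicate 1 or 2 or MDA-MB-468 control replicate 2 or 3 (0.0567 to 0.0753). The list rested on small differences. Its 12 line-dependent genes became 19 with the replicate number as a block in MDA-MB-468 cells, of which 18 had a higher change there, and 3 with the p number as a block, all 3 higher. The count fell to 4 without MDA-MB-231 KO replicate 2, to 5 without MDA-MB-231 control replicate 1, MDA-MB-231 KO replicate 1 or MDA-MB-468 control replicate 2, to 6 without MDA-MB-231 control replicate 3, and to 7 without MDA-MB-468 control replicate 3, and under quantile normalization it was 8.

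Promoters of the line-dependent members of this list are shown because all 12 differences had the same sign. The CCAAT box (CCAAT on either strand, bound by NF-Y) was searched in RefSeq promoters of GRCh38.p14, from 250 bases before to 50 after the start. Of the 12 genes, 8 had a promoter in this collection and 6 of these held the box, as did 21 of 29 promoters of the whole list (72.4%) and 35.6% of all 27305 promoters. The stretches around the matches are given 5′ to 3′ on the strand of the gene, with the box in capitals, for FDPS (plus strand, chr1:155308665-155308844), IDI1 (minus strand, chr10:1048944-1049043), INSIG1 (plus strand, chr7:155297683-155297737), LSS (minus strand, chr21:46228895-46228949), MVK (plus strand, chr12:109573559-109573777) and STARD4 (minus strand, chr5:111512636-111512721).
FDPS: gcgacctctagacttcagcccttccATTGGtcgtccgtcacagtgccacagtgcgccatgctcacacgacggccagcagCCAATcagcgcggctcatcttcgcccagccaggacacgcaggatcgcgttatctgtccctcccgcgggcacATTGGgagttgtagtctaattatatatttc
IDI1: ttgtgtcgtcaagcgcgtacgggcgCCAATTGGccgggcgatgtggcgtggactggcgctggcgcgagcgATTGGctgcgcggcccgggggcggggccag
INSIG1: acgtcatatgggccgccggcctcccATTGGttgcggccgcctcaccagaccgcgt
LSS: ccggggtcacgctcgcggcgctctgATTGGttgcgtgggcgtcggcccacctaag
MVK: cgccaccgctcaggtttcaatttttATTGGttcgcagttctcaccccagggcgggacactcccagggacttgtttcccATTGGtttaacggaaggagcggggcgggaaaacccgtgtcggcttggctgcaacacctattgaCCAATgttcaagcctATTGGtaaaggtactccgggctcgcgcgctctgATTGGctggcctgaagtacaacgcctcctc
STARD4: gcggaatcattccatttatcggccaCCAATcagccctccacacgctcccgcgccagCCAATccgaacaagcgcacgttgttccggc
MVK held 5 matches, FDPS and IDI1 3 each, of which a pair overlap in IDI1, STARD4 2, and INSIG1 and LSS 1 each. The promoters of FADS1 and FADS2 did not hold these letters in this window. Among the 25 genes called in opposite directions 17 had a promoter in the collection. The CCAAT box was in 7 of them (41.2%), the TEAD motif GGAATG in 4 (23.5%, against 14.2% of all promoters), the AP-1 motif TGANTCA in 2 (11.8%, against 7.91%) and the cAMP response element TGACGTCA in 0 (against 1.94%). All were searched on both strands, and none of these motifs contains another. A match is a description of the letters and was not tested.

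Glycolysis and hypoxia response genes went the other way. These are largely targets of the HIF factors. Of 40 measured genes 12 were line-dependent (30%), and 10 of the 12 had a lower change in MDA-MB-468 cells. In MDA-MB-231 cells 10 of the 40 rose and 1 fell, and in MDA-MB-468 cells 2 rose and 0 fell, with median changes of 0.36 and -0.03. ANGPTL4, a secreted inhibitor of lipoprotein lipase induced by hypoxia, rose from 2.00, 2.19 and 2.40 to 3.91, 3.53 and 3.26 in MDA-MB-231 cells, while in MDA-MB-468 cells it was near 0 in all 6 samples, at 0.21, 0.29 and 0.31 and 0.31, 0.34 and 0.20. EGLN3, an oxygen-sensing prolyl hydroxylase, rose from 2.55, 3.28 and 3.51 to 4.40, 4.54 and 4.16 in MDA-MB-231 cells and had overlapping values of 5.42, 4.83 and 4.92 and 4.99, 4.78 and 4.66 in MDA-MB-468 cells. Control replicate 1 was the lowest of the MDA-MB-231 controls for both genes.

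PGK1, a glycolytic kinase, PDK1, which keeps pyruvate out of mitochondria, and MXI1, a MYC antagonist, rose in MDA-MB-231 cells by 0.57, 0.65 and 0.53. In MDA-MB-468 cells their changes were -0.23, 0.05 and -0.18, with 95% confidence intervals within 0.5 of 0. CA9, a carbonic anhydrase and hypoxia marker, had changes of 1.16 in MDA-MB-231 cells and -0.38 in MDA-MB-468 cells, but its difference was not called without MDA-MB-231 control replicate 1, MDA-MB-231 KO replicate 1 or 2, MDA-MB-468 control replicate 1 or 2 or any KO sample of MDA-MB-468 (adjusted p = 0.0534 to 0.0908). HK2, the first enzyme of glycolysis in tumour cells, was line-dependent and called in neither line, at -0.48 in MDA-MB-468 versus 0.23 in MDA-MB-231 cells. The exceptions in direction were PFKP, a phosphofructokinase, which rose in MDA-MB-468 cells by 0.79 and had a change of 0.19 in MDA-MB-231 cells, and ADM, the vasodilator adrenomedullin, which fell in MDA-MB-231 cells (change of -0.63) and had 0.20 in MDA-MB-468 cells. The 12 line-dependent genes became 7 with the p number as a block or without MDA-MB-231 control replicate 1, and 6 without MDA-MB-231 KO replicate 2 or MDA-MB-468 control replicate 1.

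**Figure D3:**
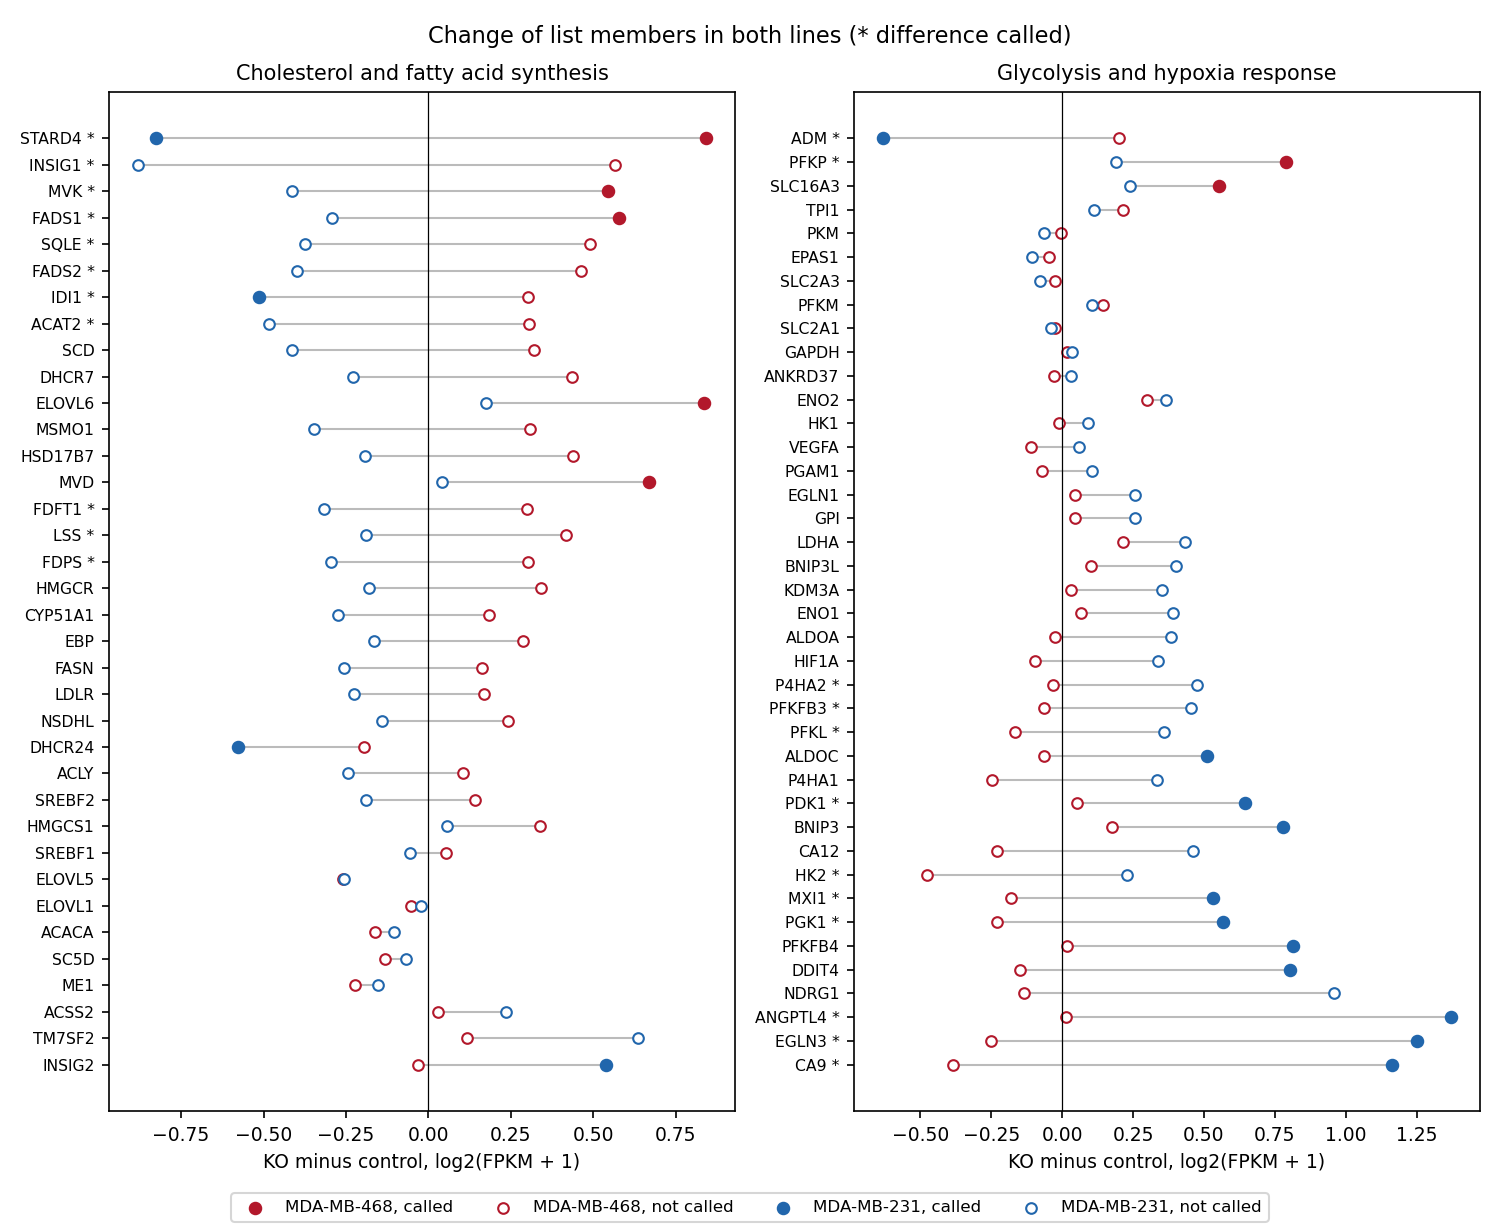
Change of the members of 2 lists on KO, apart from a gene not reported here (x axis, log2(FPKM + 1) units) in MDA-MB-468 cells (red) and MDA-MB-231 cells (blue), filled where the change was called and starred where the difference was. On the left most genes have a red point above 0 and a blue point below 0, and on the right 10 blue points are called above 0.

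Antioxidant and detoxification genes of the NRF2 factor gave 7 line-dependent genes of 30 (23.3%), and all 7 had a lower change in MDA-MB-468 cells. The 2 lines contributed different members. In MDA-MB-468 cells the aldo-keto reductases AKR1C2 and AKR1C3 and the quinone reductase NQO1 fell, with changes of -1.42, -1.59 and -0.77, whereas in MDA-MB-231 cells TXNRD1, thioredoxin reductase, rose by 0.57. AKR1C2 was near 0 in MDA-MB-231 cells, at 0.62, 0.36 and 0.39 in controls and 0.73, 1.04 and 0.50 in KO cells, and AKR1C3 was higher there than in MDA-MB-468 cells, at 5.10, 5.31 and 5.16 and 5.03, 5.07 and 4.84. The AKR1C genes are near-identical in sequence, so the share of reads given to each is uncertain. The count of 7 was 4 without MDA-MB-468 control replicate 2 or MDA-MB-468 KO replicate 2, and 3 without MDA-MB-231 KO replicate 2.

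Retinoid genes were line-dependent in 6 of 18 (33.3%), again all 6 with a lower change in MDA-MB-468 cells and again through different genes. ALDH1A1, an enzyme that makes retinoic acid, fell in MDA-MB-468 cells from 4.37, 4.21 and 4.28 to 3.09, 2.28 and 1.92 and was at 0 or 0.03 in every MDA-MB-231 sample. The related ALDH1A3 rose in MDA-MB-231 cells from 2.35, 2.40 and 2.25 to 3.85, 3.85 and 3.77 and was high in MDA-MB-468 cells before and after KO, at 7.85, 8.13 and 8.08 and 7.53, 8.13 and 8.16. DHRS3, which turns retinal back to retinol, rose in MDA-MB-231 cells by 1.74 and had a change of 0.02 (95% confidence interval -0.45 to 0.48) in MDA-MB-468 cells. RARRES1, a retinoic acid induced gene, had changes of -0.50 and 0.48 and was called in neither line.

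Prostaglandin genes were line-dependent in 5 of 8 measured (62.5%), and all 5 were called in MDA-MB-468 cells, where 2 rose and 3 fell. None was called in MDA-MB-231 cells with limma. PTGS1, the constitutive cyclooxygenase, fell from 4.03, 3.82 and 3.63 to 2.62, 1.77 and 1.56 and was near 0 in MDA-MB-231 cells, at 0.77, 0.99 and 0.96 and 0.76, 0.84 and 0.46. AKR1B1, a reductase that also makes prostaglandin F, rose by 0.94, and ABCC4, an exporter of prostaglandins, rose by 0.91, and both were expressed in MDA-MB-231 cells. There they had changes of -0.18 and 0.08.

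MHC class II molecules present peptides to helper T cells and are normally made by antigen-presenting cells. Of 11 measured genes of this pathway 5 rose and 1 fell in MDA-MB-231 cells and 0 were called in MDA-MB-468 cells, where 5 of the 11 were near 0. The 3 line-dependent members (27.3%) all rose in MDA-MB-231 cells and were near 0 in MDA-MB-468 cells. With a pseudocount of 0.1 and with each line fitted alone 2 of the 11 rose and 0 fell in MDA-MB-231 cells, and the single fall was also not called with the 75th percentile scaling, quantile normalization or the p number as a block. HLA-DRA, the alpha chain of HLA-DR, had values of 3.03, 4.39 and 4.71 in MDA-MB-231 controls and 6.04, 6.11 and 5.99 in KO cells, and was listed at 0 in all 6 MDA-MB-468 samples. HLA-DPA1 rose from 2.88, 3.87 and 4.11 to 6.02, 6.17 and 5.86, against at most 0.39 in MDA-MB-468 cells. Control replicate 1 was the lowest control for both. HLA-DMB, a chaperone of peptide loading, rose by 0.90 and was also near 0 in MDA-MB-468 cells. Its promoter held 1 CCAAT box, shown for comparison with the sterol genes (minus strand, chr6:32941021-32941075, GRCh38.p14).
HLA-DMB: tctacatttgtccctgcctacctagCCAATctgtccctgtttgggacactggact
Of the 7 promoters found for this list 4 held the box (57.1%). CD74, the invariant chain, and CIITA, the master activator of the family, rose in MDA-MB-231 cells by 0.89 and 0.52, but with changes of 0.25 and 0.21 in MDA-MB-468 cells they were not line-dependent. The difference of HLA-DMB was not called without MDA-MB-231 KO replicate 1 or 2, MDA-MB-468 KO replicate 2 or MDA-MB-468 control replicate 2 (adjusted p = 0.0573 to 0.0711). Reads of HLA genes can be shared between near-identical copies.

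Interferon-stimulated genes, the antiviral effectors, held 8 line-dependent genes of 43 (18.6%), of which 7 had a lower change in MDA-MB-468 cells. There were 4 with the p number as a block, of which 3 had a lower change. Part of this came from each line. GBP2, a guanylate-binding protein, fell in MDA-MB-468 cells from 5.75, 5.53 and 5.28 to 4.67, 3.79 and 3.62 and overlapped between the groups in MDA-MB-231 cells, at 3.98, 4.59 and 4.46 and 4.72, 4.71 and 4.47. IFI44, another interferon-induced gene, fell in MDA-MB-468 cells (change of -0.80). IFI27, an interferon-induced membrane protein, and OAS1, a sensor of viral RNA, rose in MDA-MB-231 cells by 1.14 and 0.96. IFI27 was near 0 in MDA-MB-468 cells and OAS1 was not, at 3.41, 3.07 and 2.92 in controls and 3.18, 2.86 and 2.90 in KO cells.

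Cytokines and secreted inflammatory proteins were line-dependent in 12 of 25 measured genes (48.0%), 5 with a higher and 7 with a lower change in MDA-MB-468 cells. In MDA-MB-231 cells 8 rose and 5 fell, and in MDA-MB-468 cells 0 rose and 3 fell. IL11, a cytokine of the IL-6 family, fell in MDA-MB-231 cells from 6.71, 6.54 and 6.47 to 3.85, 3.80 and 4.05 and stayed under 1 in MDA-MB-468 cells. LCN2, an iron-binding defence protein, rose in MDA-MB-231 cells from 4.21, 5.07 and 5.11 to 7.24, 7.13 and 6.52, close to its values in MDA-MB-468 cells, at 7.49, 7.38 and 7.29 in controls and 7.26, 7.31 and 7.48 in KO cells. CRISP3, a secreted protein of exocrine glands, fell in MDA-MB-468 cells from 6.62, 5.78 and 5.41 to 3.72, 2.78 and 2.30 and was listed at 0 in all MDA-MB-231 samples. CSF1, the macrophage growth factor, rose by 0.66 and IL18 fell by 0.66 in MDA-MB-231 cells, and both were expressed in MDA-MB-468 cells with changes of -0.06 and 0.13. The count of 12 was 7 without MDA-MB-231 KO replicate 2 and 7 without MDA-MB-468 KO replicate 2.

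Of 36 leukocyte-type genes listed 10 were measured, and 6 of the 10 were line-dependent (60.0%, against 8.71% of all genes). Among the 6, 3 were called in MDA-MB-231 cells only and were near 0 in MDA-MB-468 cells. CXCR4, a chemokine receptor, fell from 4.16, 4.09 and 4.23 to 1.76, 1.58 and 2.01 in MDA-MB-231 cells and was at most 0.04 in MDA-MB-468 cells. TRBC2, annotated as a T cell receptor constant segment, fell by 1.83 in MDA-MB-231 cells and was listed at 0 in MDA-MB-468 cells. It has a near-identical copy, so its reads are uncertain. ARHGDIB, a GTPase inhibitor of blood cells, fell in both lines, from 7.92, 7.90 and 7.77 to 7.36, 7.27 and 7.26 in MDA-MB-468 and also from 6.90, 6.65 and 6.58 to 4.96, 5.01 and 5.14 in MDA-MB-231 cells, and more in the latter. Of the 8 leukocyte markers searched for in the table, 1 was measured. This was CD14, an endotoxin co-receptor, at 0.84, 1.26 and 1.21 in MDA-MB-231 controls and 2.56, 2.43 and 1.87 in KO cells. In MDA-MB-468 cells its KO values lay on both sides of the controls. It rose in MDA-MB-231 cells, and its difference was not called without control replicate 1 or KO replicate 1 or 2 of MDA-MB-231, or control replicate 1 or 2 or KO replicate 2 of MDA-MB-468 (adjusted p = 0.0525 to 0.0653).

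Genes of cell shape are given next. Of 50 epithelial junction and polarity genes 14 rose and 0 fell in MDA-MB-231 cells, against 1 and 0 in MDA-MB-468 cells. Of the 50, 7 genes were line-dependent (14%), all with a lower change in MDA-MB-468 cells. TJP3, a tight junction scaffold, rose from 0.36, 0.78 and 0.64 to 1.73, 1.87 and 1.49 in MDA-MB-231 cells, and CDH1, E-cadherin, from 0.16, 0.34 and 0.50 to 1.01, 0.92 and 0.70, so both stayed low in MDA-MB-231 cells. In MDA-MB-468 cells TJP3 and CDH1 had changes of 0.05 and -0.22 from means over 5. PPL, the desmosome linker periplakin, rose by 1.01 and was listed at 0 in all MDA-MB-468 samples. Of the 50 genes, 16 were near 0 in both groups of MDA-MB-231 cells, and with a pseudocount of 0.1 the line-dependent members numbered 13.

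Of 33 actin cytoskeleton genes 7 rose and 0 fell in MDA-MB-468 cells, against 2 and 0 in MDA-MB-231 cells. Of the 33, 9 were line-dependent (27.3%), and all 9 had a higher change in MDA-MB-468 cells. FSCN1, the actin-bundling protein fascin, rose from 0.77, 1.14 and 1.34 to 2.63, 3.31 and 3.49 in MDA-MB-468 cells, still below the MDA-MB-231 values of 3.87, 3.87 and 3.93 and 3.72, 3.82 and 3.78. MYL9, a myosin light chain of contractile cells, rose from 0.49, 0.73 and 0.62 to 1.59, 1.66 and 1.80 and stayed between 6.51 and 6.73 in MDA-MB-231 cells. TPM1 and TPM2, tropomyosins, rose by 0.57 and 0.74, ZYX, the focal adhesion protein zyxin, by 0.60, and PDLIM7 by 0.63, with changes between -0.29 and -0.06 for these 4 in MDA-MB-231 cells. TNNT1, a troponin of slow muscle, rose in both lines, by 1.60 and 0.53.

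Of 18 mesenchymal markers 5 rose and 1 fell in MDA-MB-468 cells, against 1 and 2 in MDA-MB-231 cells. Near 0 in both groups of MDA-MB-468 cells were 6 of the 18. Line-dependent were 5 of the 18 (27.8%), all with a higher change in MDA-MB-468 cells. These were TNC and FSCN1 (given with the groups they also belong to), CAV1, COL5A2 and VIM. CAV1, the caveola protein caveolin-1, rose from 4.00, 4.44 and 4.54 to 5.13, 6.01 and 6.15 in MDA-MB-468 cells and lay between 8.24 and 8.42 in MDA-MB-231 cells. VIM, vimentin, was called in neither line, at 0.42 from a low level in MDA-MB-468 cells and -0.39 from a high level in MDA-MB-231 cells. COL5A2, a fibrillar collagen, rose by 1.12 in MDA-MB-468 cells and was near 0 in MDA-MB-231 cells. The direction of this list and of the actin list was kept with both other scalings, where 8 of 8 line-dependent actin genes and 5 of 5 or 5 of 6 mesenchymal markers had a higher change in MDA-MB-468 cells.

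Of 16 keratins, the intermediate filaments of epithelia, 6 rose and 1 fell in MDA-MB-468 cells, against 1 and 1 in MDA-MB-231 cells. The median changes were 0.39 and 0.17, and with a pseudocount of 0.1 the rising members in MDA-MB-468 cells numbered 3. The line-dependent keratins had no common direction. KRT4 fell from 5.60, 5.39 and 5.41 to 3.90, 3.68 and 3.64 in MDA-MB-468 cells and was at 0 or 0.03 in MDA-MB-231 cells, KRT10 rose by 1.05 in MDA-MB-468 cells, KRT81 fell by 1.38 in MDA-MB-231 cells, and KRT15 rose in both lines, by 0.59 and 1.25. These 4 of 16 were line-dependent (25.0%), and the count was 8 with the replicate block in MDA-MB-468 cells, 7 with the block in both lines and 7 without MDA-MB-468 KO replicate 1. Reads of keratins can be shared between similar copies.

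Matrix and guidance genes changed in each line in different members. Of 25 collagens and laminins 6 were line-dependent (24.0%), 5 with a higher change in MDA-MB-468 cells. LAMB3, a laminin chain of basement membranes, and COL13A1, a membrane collagen, rose in MDA-MB-468 cells by 0.99 and 0.95 and had changes of -0.16 and -0.06 in MDA-MB-231 cells. COL6A2, a microfibril collagen, rose in MDA-MB-231 cells from 4.23, 4.04 and 4.19 to 5.42, 5.48 and 5.16 and was at most 0.07 in MDA-MB-468 cells. Of 25 matrix glycoproteins and proteoglycans 7 were line-dependent (28%), 4 with a higher and 3 with a lower change in MDA-MB-468 cells, and 4 without MDA-MB-231 KO replicate 1 or MDA-MB-468 KO replicate 2. With the p number as a block they were 3, all with a higher change, and among genes over 1 in both lines 2 had a higher and 3 a lower change.

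Matrix proteases and their inhibitors held 10 line-dependent genes of 32 (31.25%), 4 with a higher and 6 with a lower change in MDA-MB-468 cells. This split became 5 and 4 with a pseudocount of 0.1 and 3 and 3 with the p number as a block. The inhibitors TIMP3, of metalloproteases, and SERPINE2, of thrombin and urokinase, were among the former. TIMP3 rose from 2.77, 2.97 and 3.09 to 4.01, 4.45 and 4.72 in MDA-MB-468 cells and had a change of 0.45 in MDA-MB-231 cells, and SERPINE2 had changes of 0.63 and -0.42. The proteases CTSV, a lysosomal cathepsin, and ADAM28 rose in MDA-MB-231 cells by 1.13 and 1.14, and ADAM28 was near 0 in MDA-MB-468 cells. Clade B serpins held 3 line-dependent genes of 7 (42.9%, against 8.71% of all genes), all with a higher change in MDA-MB-468 cells. There was 1 without any 1 of 5 samples (MDA-MB-231 control replicate 1, MDA-MB-231 KO replicates 1 and 2, MDA-MB-468 control replicate 1 and MDA-MB-468 KO replicate 2). SERPINB7, an inhibitor found in skin, rose from 2.33, 2.81 and 3.14 to 4.10, 4.86 and 4.85 in MDA-MB-468 cells and lay at 1.11, 0.68 and 0.80 in MDA-MB-231 controls and 0.41, 0.39 and 0.43 in KO cells.

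Guidance ligands and receptors, which steer axons and migrating cells, held 13 line-dependent genes of 47 (27.7%), 7 with a higher and 6 with a lower change in MDA-MB-468 cells. The split was 6 and 7 with the 75th percentile scaling, and 3 and 5 among genes with a mean over 1 in both lines. Beside the opposite changes of SEMA3A and ROBO1, SLIT2, a ligand of ROBO receptors, fell in MDA-MB-231 cells from 3.55, 3.22 and 2.76 to 1.56, 1.58 and 1.80 and was at most 0.14 in MDA-MB-468 cells. SEMA7A, a membrane semaphorin, fell by 1.30 in MDA-MB-231 cells and had a change of 0.26 in MDA-MB-468 cells. NTN1, a netrin, and ROBO3 rose in MDA-MB-468 cells by 0.97 and 1.12. Of the receptor tyrosine phosphatases and their liprin partners, 4 of 14 were line-dependent (28.6%), and all 4 had a lower change in MDA-MB-468 cells. PTPRF, the phosphatase LAR, rose in MDA-MB-231 cells from 6.22, 6.28 and 6.24 to 6.86, 6.95 and 6.88 and overlapped between the groups in MDA-MB-468 cells, at 7.60, 7.34 and 7.34 and 7.36, 7.12 and 7.28. PPFIBP2, a liprin, had changes of 1.01 in MDA-MB-231 cells and -0.74 in MDA-MB-468 cells, where it was not called.

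Of 22 YAP and TAZ targets 6 were line-dependent (27.3%), 5 with a higher change in MDA-MB-468 cells, and 3 without MDA-MB-231 control replicate 1, MDA-MB-468 control replicate 1 or MDA-MB-231 KO replicate 1 or 2. Beside CTGF, NT5E, the surface nucleotidase CD73, rose from 4.70, 4.85 and 5.16 to 5.45, 6.10 and 6.36 in MDA-MB-468 cells and had a change of -0.38 in MDA-MB-231 cells, and the kinase gene NUAK2 had changes of 1.05 and 0.14. None of the 25 genes of the Hippo pathway itself was line-dependent with limma. An unadjusted p under 0.05 was found for 6 of them, against 3632 of all 11529 genes. Without MDA-MB-468 control replicate 2 there was 1 line-dependent Hippo gene, and without MDA-MB-468 KO replicate 1 there were 2. AP-1, immediate early and MAPK feedback genes gave 7 of 35 (20.0%), 6 with a higher change in MDA-MB-468 cells, and 3 without MDA-MB-231 KO replicate 2 or 4 without MDA-MB-468 KO replicate 2. JUND, an AP-1 subunit, DUSP5, a nuclear ERK phosphatase, and SPRY2, an inhibitor of receptor tyrosine kinase signalling, rose in MDA-MB-468 cells by 0.54, 0.63 and 0.83 and had changes of -0.13, -0.07 and -0.26 in MDA-MB-231 cells.

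The JAK-STAT list gave 4 of 31 (12.9%), all with a higher change in MDA-MB-468 cells, and 2 without MDA-MB-468 KO replicate 2. SOCS3, the feedback inhibitor of IL-6 family receptors, rose in MDA-MB-468 cells from 1.77, 2.00 and 2.21 to 3.07, 2.49 and 2.56 and had a change of -0.20 in MDA-MB-231 cells. TGF-beta and BMP genes gave 6 of 43 (14%), 2 with a higher and 4 with a lower change in MDA-MB-468 cells, or 2 and 1 with the p number as a block. TGFB1, the ligand, rose in MDA-MB-468 cells from 2.90, 2.97 and 2.94 to 4.17, 4.08 and 4.17, and its change of 0.19 in MDA-MB-231 cells was small though the groups did not overlap there. FST, the activin antagonist follistatin, fell by 0.92 in MDA-MB-231 cells and was near 0 in MDA-MB-468 cells. Of the Wnt genes 6 of 32 were line-dependent (18.75%). WNT6, a ligand, and WLS, which Wnt ligands need for secretion, rose in MDA-MB-468 cells by 0.74 and 0.51, while the receptor FZD4 fell by 0.97. WNT6 was listed at 0 in all MDA-MB-231 samples. Of the Notch ligands JAG1 fell by 0.53 in MDA-MB-231 cells and had a change of 0.07 in MDA-MB-468 cells. LFNG, a glycosyltransferase that modifies Notch receptors, rose by 0.66 in MDA-MB-468 cells against -0.03 in MDA-MB-231 cells, and TGFA, an EGFR ligand, rose by 0.71 in MDA-MB-231 cells against -0.02 in MDA-MB-468 cells.

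Transcription factors of the mammary epithelium were line-dependent in 10 of 24 (41.7%), 5 in each direction. In MDA-MB-468 cells XBP1, a factor of secretory cells, fell from 8.24, 7.98 and 7.95 to 7.20, 6.72 and 6.57, and it had a change of -0.05 (95% confidence interval -0.35 to 0.26) in MDA-MB-231 cells. FOXA1, the luminal pioneer factor, fell by 0.80 in MDA-MB-468 cells and was near 0 in MDA-MB-231 cells. ETS1 rose by 0.95 in MDA-MB-468 cells and had a change of -0.04 in MDA-MB-231 cells, and RUNX2, a bone factor, rose by 0.72 against 0.07. EHF, an epithelial ETS factor, rose in MDA-MB-231 cells from 6.03, 6.29 and 6.09 to 6.66, 6.61 and 6.65 and was lower in KO cells of MDA-MB-468, at 6.21, 5.92 and 5.77 against 6.59, 6.43 and 6.37, without a call there. The solute carriers, the largest transporter family, gave 23 of 162 (14.2%), 8 with a higher and 15 with a lower change in MDA-MB-468 cells, and 15 in all without MDA-MB-468 control replicate 1 or MDA-MB-231 KO replicate 1. SLC12A7, a potassium and chloride cotransporter, rose in MDA-MB-231 cells by 0.84 against -0.37, and SLCO4A1, an organic anion transporter, rose in MDA-MB-468 cells by 0.81 against -0.41.

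**Figure D4:**
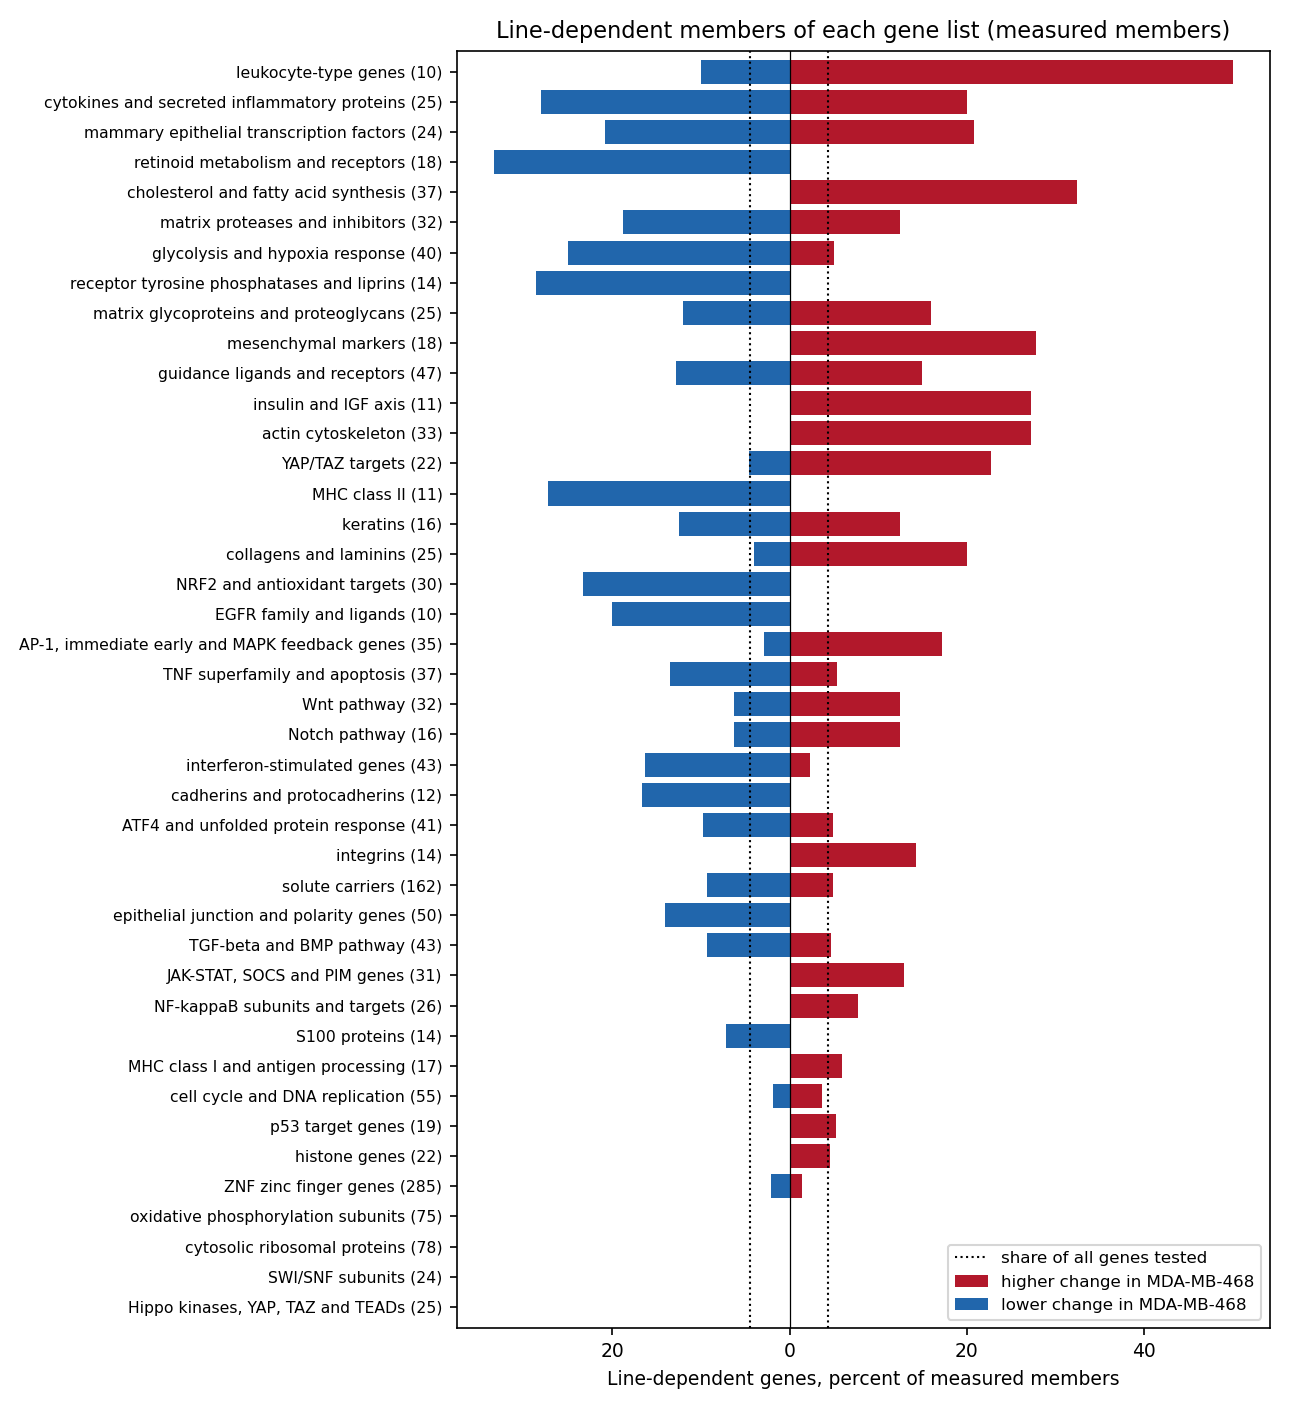
Share of line-dependent genes among the measured members of each list (x axis, percent), with a higher change in MDA-MB-468 cells to the right (red) and a lower change to the left (blue), for lists of at least 10 measured genes. Dotted lines mark the 4.29% and 4.41% of all genes, and the 4 lists at the bottom have no line-dependent member.

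A few families held no line-dependent gene or a share below that of all genes. Over all 11529 genes 3632 had an unadjusted p under 0.05 for the difference with limma, and the counts at this limit below stand against that background. Of the 78 cytosolic ribosomal protein genes 0 were line-dependent with limma, and 55 had an unadjusted p under 0.05. Their median change was 0.18 in MDA-MB-468 cells versus -0.13 in MDA-MB-231 cells, with a change above 0 in the first and below 0 in the second for 66 of them (84.6%) and the reverse for 0. Quantile normalization left medians of 0.09 and -0.04, and leaving out 1 sample gave 1 line-dependent gene (without MDA-MB-231 control replicate 1 or MDA-MB-468 KO replicate 3), 2 (without MDA-MB-231 control replicate 2) or 3 (without MDA-MB-231 KO replicate 3). Of the 75 genes of oxidative phosphorylation 0 were line-dependent, with 11 at an unadjusted p under 0.05 and medians of 0.07 and -0.06, and 1 was without MDA-MB-231 KO replicate 1. None of the 24 SWI/SNF subunit genes was line-dependent, with 6 at an unadjusted p under 0.05, and none of 5 metallothionein genes, with 1. The SWI/SNF count was 3 without MDA-MB-468 control replicate 3, 2 without MDA-MB-231 control replicate 2, and 1 without MDA-MB-468 control replicate 2, MDA-MB-468 KO replicate 1 or MDA-MB-231 KO replicate 2 or 3. Cell cycle and DNA replication genes gave 3 of 55 (5.45%) and ZNF zinc finger genes 10 of 285 (3.51%), against 8.71% of all genes, and the cell cycle count was 5 without MDA-MB-468 KO replicate 1. CDKN1A, the cell cycle inhibitor p21, was 1 of the 3, and rose in MDA-MB-468 cells from 4.03, 3.83 and 3.83 to 4.73, 4.74 and 4.77 against a change of 0.07 in MDA-MB-231 cells. CDKN2B, the inhibitor p15, rose by 0.68 in MDA-MB-468 cells and was listed at 0 in all MDA-MB-231 samples.

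Counts for the remaining lists follow. Genes of the TNF superfamily and of apoptosis gave 7 of 37 (18.9%), or 4 without MDA-MB-468 KO replicate 2 and 3 with the p number as a block, and ATF4 and unfolded protein response genes gave 6 of 41 (14.6%). Of the imprinted genes 9 of 21 listed were measured, and 4 of the 9 were line-dependent (44.4%, against 8.71% of all genes). Line-dependent integrins were 2 of 14 (14.3%), and line-dependent cadherins and protocadherins 2 of 12 (16.7%). Histone genes gave 1 of 22 (4.55%) and targets of p53 1 of 19 (5.26%), which was CDKN1A, with 2 without MDA-MB-231 control replicate 2 or MDA-MB-468 control replicate 3.

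Responses in 1 line were then divided by the level of the gene in the other line. A gene was taken as near 0 where both group means of the other line were under 1 on the log2(FPKM + 1) scale, as steady where it was expressed there with a 95% confidence interval of its change within 0.5 of 0, and as unresolved otherwise. Of the 288 genes called in MDA-MB-468 cells only, 76 were near 0 in MDA-MB-231 cells, 134 steady and 78 unresolved. Of the 312 called in MDA-MB-231 cells only, 81 were near 0 in MDA-MB-468 cells, 148 steady and 83 unresolved. A fall could not be measured in the other line for the genes near 0 there.

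Genes that fell were more often near 0 in the other line than genes that rose. In MDA-MB-468 cells 48 of 126 falling genes (38.1%) and 28 of 162 rising genes (17.3%) were near 0 in MDA-MB-231 cells. For calls of MDA-MB-231 the shares were 49 of 114 (43.0%) and 32 of 198 (16.2%), near 0 in MDA-MB-468 cells. Of all 11529 genes 708 were near 0 in MDA-MB-231 cells and 605 in MDA-MB-468 cells. Genes near 0 in 1 line passed the filter of the study largely through their level in the other line. The shares therefore depend on that filter and on the floor at 0. They are a description and were not tested. Among the falling genes 12 of the 48 and 13 of the 49 were listed at 0 in all 6 samples of the other line. Falling genes near 0 in the other line, though not all listed at 0 there, included CRISP3, ALDH1A1, KRT4 and PTGS1 (near 0 in MDA-MB-231 cells). IL11, CXCR4, TRBC2 and SLIT2 were falling genes near 0 in MDA-MB-468 cells. With a limit of 0.5 for near 0 the counts were 63 and 66, and with a limit of 2 they were 99 and 110.

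Steady genes are those where a response in 1 line stood against a measured absence of change over 0.5 in the other. LDHB, the lactate dehydrogenase of aerobic tissue, rose in MDA-MB-468 cells from 3.94, 4.13 and 4.35 to 5.81, 5.76 and 5.62 and was far higher in MDA-MB-231 cells, where it had a change of -0.25 (95% confidence interval -0.46 to -0.04). PCDH1, a protocadherin, rose in MDA-MB-231 cells from 1.48, 1.91 and 1.80 to 3.69, 3.62 and 3.34 and was higher in MDA-MB-468 cells, with a change of 0.14 (-0.11 to 0.40). TGFB1, XBP1, ALDH1A3 and DHRS3 were also steady in the other line. Among unresolved genes were PEG10, an imprinted gene derived from a retrotransposon, with 1.70 in MDA-MB-468 cells versus -0.27 in MDA-MB-231 cells, and CLU, the chaperone clusterin, which fell from 9.44, 8.85 and 8.64 to 7.92, 7.33 and 7.11 in MDA-MB-468 cells and was higher in KO cells of MDA-MB-231, at 6.91, 6.80 and 6.53 against 5.67, 6.42 and 6.23, without a call. SERPINA3, an acute-phase protease inhibitor, rose in MDA-MB-231 cells from 1.17, 1.39 and 1.45 to 3.16, 3.27 and 2.73 and had a change of -0.42 in MDA-MB-468 cells. MUC1, an epithelial mucin, rose from 3.61, 4.68 and 4.62 to 5.89, 5.94 and 5.45 and had a change of -0.52 in MDA-MB-468 cells.

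**Figure D5:**
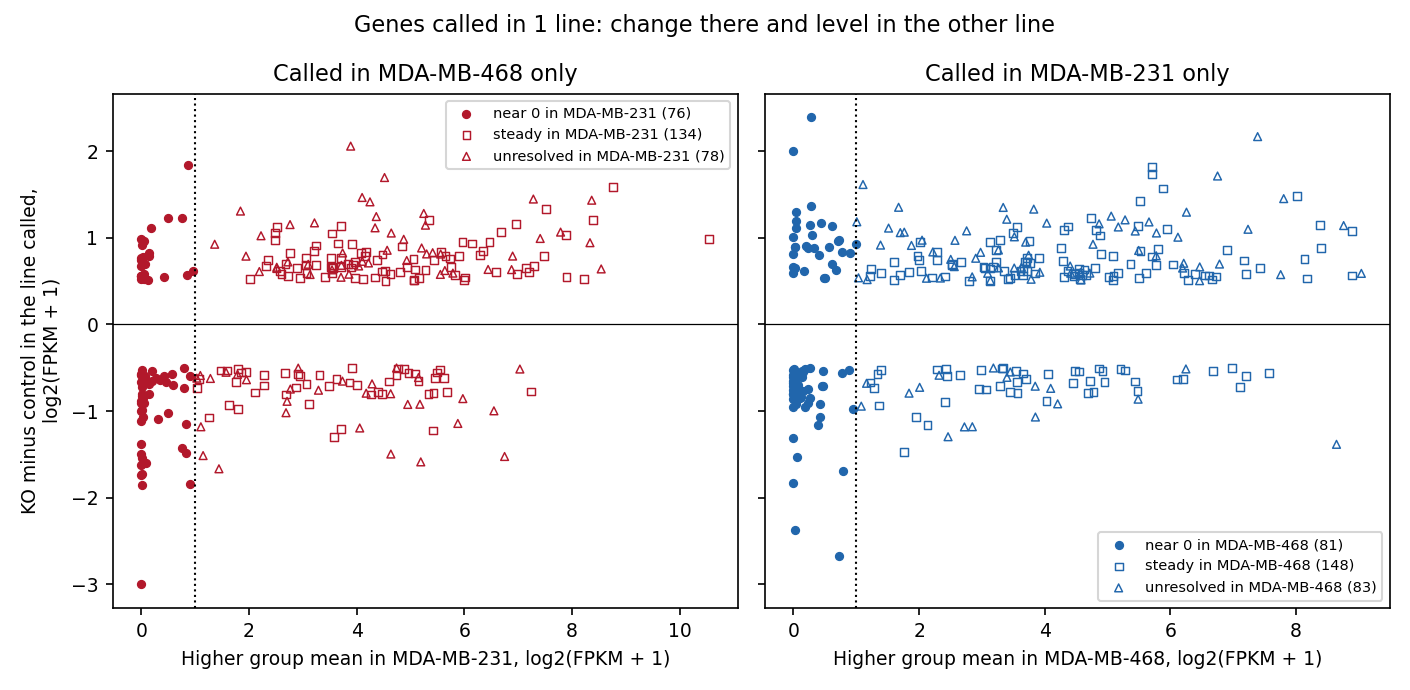
Change on KO in the line where the gene was called (y axis) against the higher group mean in the other line (x axis), both in log2(FPKM + 1) units, for the 288 genes called in MDA-MB-468 cells only (left) and the 312 called in MDA-MB-231 cells only (right). Filled points left of the dotted line at 1 are near 0 in the other line, and 48 of 76 on the left and 49 of 81 on the right lie below 0.

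Genes called in both lines in the same direction but with unlike size numbered 6. TNFSF9, the ligand of the T cell receptor 4-1BB, rose in MDA-MB-468 cells from 2.50, 2.76 and 2.93 to 4.07, 4.52 and 4.66 and in MDA-MB-231 cells from 2.06, 1.81 and 1.81 to 2.46, 2.77 and 2.59, a difference of 0.97 ± 0.22 (SE, adjusted p = 0.0163). TNNT1, the Wnt factor TCF7L1 and GALNT3, which starts O-linked sugar chains, completed the list with KRT15 and ARHGDIB. TCF7L1 changed by 1.15 and 0.64, and GALNT3 by -0.55 and -1.20.

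The distance between the lines was compared with and without SMARCA4. For each gene the mean of the MDA-MB-231 samples was subtracted from that of the MDA-MB-468 samples, in controls and in KO cells separately. The distance was smaller in KO cells for 16 of the 25 genes called in opposite directions (64.0%), for 642 of the 1004 line-dependent genes (63.9%) and for 6229 of all 11529 genes (54.0%). For the 25 genes the median distance was 1.86 in controls and 1.12 in KO cells. For the 288 genes called in MDA-MB-468 cells only it was smaller in 196 (68.1%), and for the 312 called in MDA-MB-231 cells only in 204 (65.4%). Of the 6 genes called in both lines in the same direction it was smaller in 2 (33.3%). These shares were not tested. The signed distance of a gene changes on KO by the very difference used to call it, so the shares of called genes depend on that choice. A gene at 0 in all samples of 1 line can only come closer by falling in the other.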

How the data were processed

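Bulk RNA of 12 samples was profiled, with 3 control and 3 SMARCA4 KO samples for each of the MDA-MB-468 and MDA-MB-231 lines. The values were deposited by the authors as log2(FPKM + 1) for each gene and sample. The study trimmed reads with Trimmomatic, aligned them to hg19 with STAR and estimated FPKM with RSEM, and it removed genes of low average or low spread, so genes near 0 everywhere and genes that hardly vary are under-represented. The annotation release is not given in the sources used here. Read counts cannot be had from these values, so depth is unknown and no count test was possible.

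All 11529 genes were fitted with limma 3.58.1 (R 4.3.3, no intensity trend) in 1 model of the 4 groups, with contrasts for KO against control in each line and for the difference of these changes. Adjusted p-values are Benjamini-Hochberg values over all genes, and a call needed an adjusted p under 0.05 and an absolute change over 0.5. All adjusted p-values in the text come from this test. On simulated data over 11529 genes, 194 of 200 genes made line-dependent were recovered with 7 false calls. The simulated differences were all well over 0.5, lay only in genes expressed in both lines, and had independent normal noise. Recovery of differences near 0.5, or of genes near 0 in 1 line, was therefore not measured. Members of the lists, and the rules, were chosen with earlier results of these data known. Genes were named by size of the difference, namely up to 20 called in opposite directions, 5 or 3 for each line and direction called in 1 line only, 3 called in the same direction, and up to 4 line-dependent genes in each list, and further list members were named after their values were seen. The CCAAT search in the cholesterol list was likewise added after its values were seen. The symbol of 18 genes had become a date, and 1 of these was line-dependent and is not named.

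Same-numbered samples of MDA-MB-468 deviated together from their group means (correlations across genes of 0.28, 0.191 and 0.147), and those of MDA-MB-231 did not (-0.074, 0.077 and -0.159). This pairing comes from the replicate numbers in the labels. MDA-MB-468 control replicate 3 correlated as much with KO replicate 2 (0.153) as with KO replicate 3. The p number instead placed MDA-MB-468 control replicate 1 with KO replicate 2 (-0.257) and control replicate 2 with KO replicate 3 (0.05). The samples without a match, control replicate 3 and KO replicate 1, had -0.211. The pairs by p number thus showed no clear shared deviation. Alternatives were another pseudocount, filters on low values, scalings, an intensity trend, array weights, replicate blocks, other limits, each line fitted alone and each sample left out. Promoters came from RefSeq (GRCh38.p14) and were matched by symbol. Python 3.11.15, pandas 2.3.3, numpy 2.4.6 and matplotlib 3.10.9 were used. A few results are not reported here.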

Additional observations from a re-analysis of the deposited data

Results flagged for a closer look

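The test of the difference between the lines singled out 1004 genes, of which 25 were called in both lines in opposite directions. Each difference is in log2(FPKM + 1) units and is positive where the change was higher in MDA-MB-468 cells. Among the 17 genes that rose in MDA-MB-468 cells and fell in MDA-MB-231 cells, the differences were, from the highest, SOCS2 2.37, TNC 2.16, SEMA3A 2.02, EVA1A 1.99, CTGF 1.96, C12orf75 1.86, ACSL4 1.76, STARD4 1.67, ITGB2 1.59, MITF 1.56, TMEM2 1.53, TRNP1 1.48, AMIGO2 1.34, FOXC1 1.31, ROBO1 1.25, PPARG 1.12 and DNER 1.03. Among the 8 with the reverse pattern they were ALDH3A1 -2.16, GYG2 -1.90, CCL2 -1.74, SORL1 -1.70, RAB3D -1.41, SLC22A23 -1.35, CPT1A -1.30 and PLB1 -1.25. TNC and ALDH3A1 had differences of like size in the 2 directions, and both kept their calls in all 12 fits that leave out 1 sample. No group has 4 or more samples, so single samples far from their group were not looked for.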

How the results depend on the processing

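No named gene with a called difference, in the main fit or the alternative, changed the direction of that difference. For named genes called in neither fit the direction was not compared. The split between higher and lower changes turned for all genes and for 4 lists whose split is given (matrix glycoproteins, matrix proteases, guidance genes and TGF-beta genes), as given beside them. Of 167 named genes, 47 lost their call for the difference in at least 1 alternative and 1 gained it under quantile normalization. The genes called in opposite directions numbered 41 with a pseudocount of 0.1 and 40 with array weights, where 435 were called in MDA-MB-468 cells only. The line-dependent genes numbered 1699 on adjusted p alone and 217 with a difference over 1, which left 2 called in the same direction, 87 in MDA-MB-468 cells only and 95 in MDA-MB-231 cells only. With each line fitted alone, 247 genes were called in MDA-MB-468 cells, 14 in opposite directions and 144 in MDA-MB-468 cells only.

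Leaving out 1 sample gave 724 to 1190 line-dependent genes, 398 to 712 called in MDA-MB-468 and 435 to 644 in MDA-MB-231 cells, 19 to 44 in opposite directions, 4 to 6 in the same direction, 217 to 435 in MDA-MB-468 cells only and 232 to 357 in MDA-MB-231 cells only. The values of 44 and 435 came without MDA-MB-468 KO replicate 1. The cause was not tested.

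With the replicate number as a block in both lines there were 992 line-dependent genes and 29 called in opposite directions, and with the block in MDA-MB-468 cells alone, chosen after the pairing check, 1065 and 30. These 2 blocks changed no other call of the 25 genes called in opposite directions than those given with them. Among the named genes the block in both lines lost the call for the difference of PI3, VWA1, MATN2, LTBP3, NOTCH2, FJX1, CA9 and GRB10, and the block in MDA-MB-468 cells that of IL8 (adjusted p = 0.0524) and LTBP3 (0.054). With the p number of the labels as the block there were 616 line-dependent genes, and 39 of the 167 named genes lost the call for the difference.

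The p number block also gave 6 line-dependent mammary transcription factors in place of 10, 15 solute carriers in place of 23, 6 ZNF genes in place of 10, 2 JAK-STAT genes in place of 4, and 1 each for clade B serpins, cell cycle genes and cadherins in place of 3, 3 and 2. A mean over 1 in both lines, which tests fewer genes, gave 0 MHC class II genes, 6 cytokines, 3 leukocyte-type genes, 3 retinoid genes, 3 collagens and laminins, 8 guidance genes, 1 clade B serpin, 1 integrin, 1 cadherin and 0 histone genes. Array weights gave 5 MHC class II genes, 7 keratins and 17 ZNF genes, and a pseudocount of 0.1 gave 17 ZNF genes. With each line fitted alone, the actin genes that rose in MDA-MB-468 cells numbered 4 in place of 7, and the members that rose in MDA-MB-231 cells numbered 5 in place of 10 for glycolysis and 5 in place of 8 for cytokines.

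The values carry no depth, so counting error cannot be separated from the spread of 3 samples, and low genes have their changes compressed by the pseudocount. Near-identical genes (AKR1C, HLA and keratin genes) share reads in part. List counts close to the limit of 0.5 moved with single samples, as given beside many of them, and no list was tested as a set. Among lists without such values beside them, leaving out 1 sample gave 9 to 18 guidance genes and 6 to 11 actin genes. It gave 4 to 7 TGF-beta and BMP genes, 4 to 9 ATF4 and unfolded protein response genes and 7 to 11 mammary transcription factors.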
